A study of Mus musculus with 28 samples.

Results

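The interferon response genes are a set of 41 mouse genes known to be induced when interferons act on a cell. They were matched by name, older alias or accession to the probes of 28 one-colour Agilent arrays of T cell RNA. A probe was found for 40 of the 41 genes, and all 40 were well above background on at least 3 arrays, as were 19395 of the 27670 genes with a probe. Xaf1 had no named probe and is not analysed here. Each gene is represented by its brightest probe. Its level is the log2 signal of the probe minus the log2 of the 75th percentile of the array, so a level of 0 means as bright as that percentile. A level of one probe cannot be set against that of another probe, and the text compares levels of the same gene between arrays only.

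The RNA came from CD4 and CD8 T cells of old (20 months) and young (4 months) BALB/c mice, sorted and then either kept unstimulated (0 h) or put on plates coated with antibodies to CD3 and CD28, which engage the antigen receptor and its costimulatory receptor. Old CD8, young CD8, old CD4 and young CD4 cells had 3 arrays each at 0 h, and 1 array each at 4, 12, 24 and 72 h. On the sort the labels disagree: some fields give naive cells low for CD44 and others give cells high for CD44. RNA from 4 sortings was pooled, per the labels, and nothing there says that the arrays of a group hold separate pools, so p-values may measure technical spread only. 

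Within each group at 0 h, a pair of arrays shares a slide and the remaining array lies on another. The pair differed little over the 40 genes (SD of the log2 differences 0.10 to 0.32), whereas arrays of a group on different slides differed by an SD of 0.59 to 0.86. The 3 arrays of a group are therefore not equally independent, and the 0 h comparisons were also fitted with the pair averaged to 1 value. The number of probes well above background ranged from 16970 to 28800 over the arrays, and the number of arrays limits the precision. Repeat spots varied more on the 6 CD4 arrays of the 3 later times (12, 24 and 72 h), with a median coefficient of variation of repeat spots of 16.45 to 21.92%, against 4.57 to 10.15% on the other 22 arrays. On these 6 arrays Gbp2 had no usable spot. Of 28 columns in the deposited value table, 6 (CD8 cells at 4, 12 and 24 h, of both ages) hold the values of another time of the same age, and the labels of the scanner files were followed. Summed marker levels at 0 h differed with age. The B cell markers (11 tested) summed to 11.9 to 12.8 in old CD4 cells and 2.99 to 5.31 in young CD4 cells, and to 17.7 to 28.4 in old CD8 cells and 11.3 to 12.6 in young CD8 cells, in units of the 75th percentile. The T cell markers (10 tested) summed to 503 to 598 in old and 491 to 670 in young CD4 cells, and none of them was called for age.

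Interferons are secreted proteins that warn cells of infection. Type I interferons, such as interferon beta, act through a receptor that activates the kinases JAK1 and TYK2. A complex that holds STAT2 and IRF9 then binds interferon-stimulated response elements (ISREs) near the genes it induces. Interferon gamma, which activated T cells themselves secrete, acts through another receptor and leads to binding at gamma-activated sites (GAS). The induced proteins include blockers of viral replication, sensors of viral RNA, transcription factors that extend the response, and chemokines that draw activated T cells.

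The promoters of 5 genes are shown, picked from the genes described below because each holds an ISRE core. Ifit1 and Isg15 among them were not called for age at 0 h. Ifi44, Oasl2 and Cxcl9, which were called for age at 0 h in CD8 cells, hold no such core within 250 bases before the start. They are RefSeq sequences of GRCm38.p6, 250 bases before the annotated start, read on the strand of the gene. Capitals mark ISRE cores, a pair of GAAA with 2 bases between them on either strand, with overlapping cores joined. The Oas1a promoter (chr5:120907526-120907775, minus strand) has its nearest core 4 bases before the start. In the Gbp3 promoter (chr3:142559794-142560043, plus strand) the distance is 29 bases, and in the Ifit1 promoter (chr19:34640639-34640888, plus strand) it is 75 bases. In the Isg15 promoter (chr4:156200819-156201068, minus strand) it is 56 bases, and in the Cxcl10 promoter (chr5:92348890-92349139, minus strand) it is 203 bases.
Oas1a: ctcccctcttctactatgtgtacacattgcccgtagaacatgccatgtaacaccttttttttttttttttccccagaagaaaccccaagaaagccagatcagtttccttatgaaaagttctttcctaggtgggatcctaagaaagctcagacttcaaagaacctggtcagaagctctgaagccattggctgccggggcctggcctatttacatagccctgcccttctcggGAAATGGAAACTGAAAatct
Gbp3: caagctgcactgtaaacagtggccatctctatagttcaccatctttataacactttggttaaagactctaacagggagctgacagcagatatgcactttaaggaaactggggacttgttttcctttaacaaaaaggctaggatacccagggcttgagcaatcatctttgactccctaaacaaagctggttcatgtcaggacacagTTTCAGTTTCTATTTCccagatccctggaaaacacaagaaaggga
Ifit1: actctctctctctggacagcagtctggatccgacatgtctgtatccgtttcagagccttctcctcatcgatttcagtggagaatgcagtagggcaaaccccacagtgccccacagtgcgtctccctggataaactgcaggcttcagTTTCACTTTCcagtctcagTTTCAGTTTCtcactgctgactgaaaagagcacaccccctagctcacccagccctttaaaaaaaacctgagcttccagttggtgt
Isg15: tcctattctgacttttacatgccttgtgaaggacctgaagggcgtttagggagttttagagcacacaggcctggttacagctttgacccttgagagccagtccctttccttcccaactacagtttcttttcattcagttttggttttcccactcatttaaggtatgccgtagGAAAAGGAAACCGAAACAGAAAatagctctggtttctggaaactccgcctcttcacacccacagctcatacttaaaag
Cxcl10: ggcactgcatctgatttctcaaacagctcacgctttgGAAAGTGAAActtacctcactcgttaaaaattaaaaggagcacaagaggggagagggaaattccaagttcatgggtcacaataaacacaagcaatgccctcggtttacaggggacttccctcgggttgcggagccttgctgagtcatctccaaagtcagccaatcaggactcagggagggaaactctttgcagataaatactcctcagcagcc

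RefSeq promoters were found for 30 of the 41 genes. Of these genes, 12 had an ISRE core within 250 bases before a start (40%), against 936 of 27025 genes overall (3.46%). The 12 were Bst2, Cxcl10, Gbp2, Gbp3, Ifit1, Ifit3, Igtp, Isg15, Oas1a, Oas3, Rsad2 and Stat2. A GAS core (TTC and GAA with 3 bases between them) lay in the window of 6 of the 30 genes (20%), against 8.13% of all genes: Bst2, Eif2ak2, Ifit2, Igtp, Isg20 and Oas1a. A match is a stretch of letters and no measurement of binding. Counted per promoter, as some genes have several starts, the ISRE core lay in 12 of 35 (34.3%), against 2.98% of all promoters.

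In unstimulated CD4 cells, 3 of the 40 genes were higher in old than in young mice and none was lower, against 1.74% of all genes called in either direction (1.22% higher). They were Gbp3 and Iigp1, interferon-inducible GTPases that attack the vacuoles of intracellular parasites and bacteria, and Ly6a, which encodes the surface antigen Sca-1. The median over the 40 genes was 0.19, against -0.03 over all genes, and 26 of the 40 differences were positive. On the slide with 2 arrays of each age the median was 0.27 (31 higher), and on the other it was 0.05 (22 higher). The median of all genes was -0.05 on both. Changes in bulk RNA do not tell fewer cells of a type from less RNA per cell.

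Gbp3 lay at 4.18, 4.10 and 4.84 in old CD4 cells, against 2.23, 2.53 and 2.99 in young CD4 cells. All old arrays were above all young ones, and the difference was 1.79 ± 0.25 (SE, 3.45-fold, adjusted p = 0.012). It was 1.76 on the slide with 2 arrays of each age and 1.85 on the slide with 1 of each. Iigp1 lay at 3.80, 3.80 and 4.13 in old CD4 cells, against 2.56, 2.58 and 2.69 in young CD4 cells, a difference of 1.30 ± 0.20 (2.47-fold, adjusted p = 0.016). Here too the groups did not overlap, and the replicate spread was small. Ly6a lay at 1.36, 1.34 and -0.86 in old CD4 cells, against -2.55, -2.58 and -1.61 in young CD4 cells, a difference of 2.85 ± 0.56 (7.23-fold, adjusted p = 0.038). Its size differed between the slides, at 3.91 on the slide with 2 arrays of each age and 0.74 on the other. The 2 slides also differed in scanner model and software version.

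These calls in CD4 cells were lost when the arrays that share a slide were averaged, which also leaves fewer values. Which of the 2 accounts for the loss was not tested. With the pair averaged no gene of the set was called, against 0.0103% of all genes, at Gbp3 1.80, Iigp1 1.34 and Ly6a 2.33 (adjusted p = 0.86 each). In CD4 cells the replicate numbers follow the slides, and a fit of the CD4 arrays with the number as a block also called none (Gbp3 and Iigp1 adjusted p = 0.084 each, Ly6a adjusted p = 0.13). Without young replicate 1 none was called (Gbp3 adjusted p = 0.062), and without young replicate 2 none (Gbp3 adjusted p = 0.066). Without old replicate 1 or old replicate 2 only Gbp3 was called, and without young replicate 3 there were 5 calls. With slide as a block 13 genes were called, 9 higher and 4 lower, against 23% of all genes.

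Other members in CD4 cells went either way. Arrays of old mice lay above all arrays of young mice for 10 genes (14.4% of all genes did so) and below for 3 (11.8%). The 3 lower were Mx2, a GTPase that restricts viruses (-0.83, adjusted p = 0.096), Tap1, which carries peptides to class I molecules (-0.79, adjusted p = 0.19), and Irf7, the regulator of type I interferon genes (-1.14, adjusted p = 0.24). Oasl2, of the oligoadenylate synthetase family, differed by 2.58 (adjusted p = 0.051), and 1 of 3 young arrays measured it above background. By role, the 3 IFIT genes (translation blockers) had a median of 0.38, and the 5 genes of the OAS family of -0.24. The 6 other antiviral effectors had a median of 0.00. One of them, Bst2, the tether that holds budding virions, lay at 3.95, 3.97 and 2.89 in old CD4 cells and 3.76, 3.85 and 3.35 in young CD4 cells, which overlapped.

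In unstimulated CD8 cells, 8 of the 40 genes were higher in old than in young mice and none was lower, against 2.22% of all genes called in either direction (1.7% higher). The 8 were Oas1a, Ifi44, Iigp1, Oasl2, Dhx58, Mx1, Usp18 and Cxcl9. The median over the 40 genes was 0.72, against -0.05 over all genes, and 36 of the 40 differences were positive. Old arrays lay above all young ones for 22 genes (10.8% of all genes did so) and below for 1, Trim25 (11.2%), an E3 ligase that acts on the RNA sensor RIG-I.

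Oas1a, which makes the oligoadenylate that activates RNase L, lay at 2.11, 1.87 and 0.96 in old CD8 cells, against -1.62, -1.39 and -1.21 in young CD8 cells. The groups were far apart, at 3.05 ± 0.29 (8.30-fold, adjusted p = 0.00068), and the difference was 3.29 and 2.59 on the 2 slides. Ifi44, an interferon-induced antiviral protein, lay at 0.73, 0.74 and -0.47 in old CD8 cells, against -1.69, -3.14 and -2.55 in young CD8 cells. That is 2.79 ± 0.41 (6.92-fold, adjusted p = 0.0069), with no overlap. Iigp1 lay at 3.02, 2.95 and 2.83 in old CD8 cells, against 1.95, 1.52 and 1.29 in young CD8 cells, a difference of 1.34 ± 0.20 (2.53-fold, adjusted p = 0.0069). Its size was near that in CD4 cells.

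The remaining calls were weaker or dimmer. Mx1, which blocks influenza virus in the mice that have an intact gene and is disrupted in most laboratory strains, lay at -0.72, -0.87 and -1.72 in old CD8 cells and -3.59, -2.88 and -2.99 in young CD8 cells (2.05 ± 0.42, 4.15-fold, adjusted p = 0.034). Usp18, which removes ISG15 from proteins and dampens the receptor, lay at 2.78, 2.70 and 1.84 in old and 0.91, 1.01 and 1.13 in young CD8 cells (1.42 ± 0.30, 2.68-fold, adjusted p = 0.042). Dhx58 (LGP2, a partner of the RNA sensors) lay at 1.73, 1.74 and 1.32 in old and 0.73, 0.74 and 0.52 in young CD8 cells (0.93 ± 0.18, 1.91-fold, adjusted p = 0.027). In none of these did old and young arrays overlap. Oasl2 lay at -2.96, -3.08 and -2.93 in old CD8 cells and was not well above background on any young array. It was at least 3.6-fold higher in old CD8 cells (adjusted p = 0.024), a bound of the old mean over the lowest signal above background on the young arrays. Cxcl9, a chemokine that interferon gamma induces, lay at -2.11, -2.20 and -3.56 in old CD8 cells, against -4.70, -5.89 and -4.97 in young CD8 cells, 1 of which was above background (2.56 ± 0.56, 5.91-fold, adjusted p = 0.049).

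With the pair on one slide averaged no gene of the set was called in CD8 cells either, against 0.0103% of all genes, with adjusted p between 0.19 (Oas1a) and 1. The differences stayed positive, at 2.94 for Oas1a, 2.40 for Ifi44 and 1.22 for Iigp1. Leaving out old replicate 1, old replicate 2, young replicate 2 or young replicate 3 left 3 calls each, leaving out young replicate 1 gave 5, and leaving out old replicate 3 gave 9. Oas1a, Ifi44 and Iigp1 were called under each of these 6. With slide as a block 14 genes were higher and 1 lower, against 9.61% of all genes. Within the slide with 2 arrays of each age the median of the 40 genes was 0.93 (38 higher), and within the other it was 0.24 (29 higher).

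By role in CD8 cells, all 5 OAS genes and all 6 other antiviral effectors had a positive difference, with medians of 1.06 and 0.70. The 5 inducible GTPases had a median of 0.25 and the 2 chemokines of 1.93. Among the transcription factors, Irf7 lay at 1.49, 1.44 and 0.85 in old CD8 cells and 0.52, 0.62 and 0.49 in young CD8 cells (0.72), while Stat2 and Irf9, which bind ISREs together, had differences of 0.01 and -0.10.

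**Figure D1:**
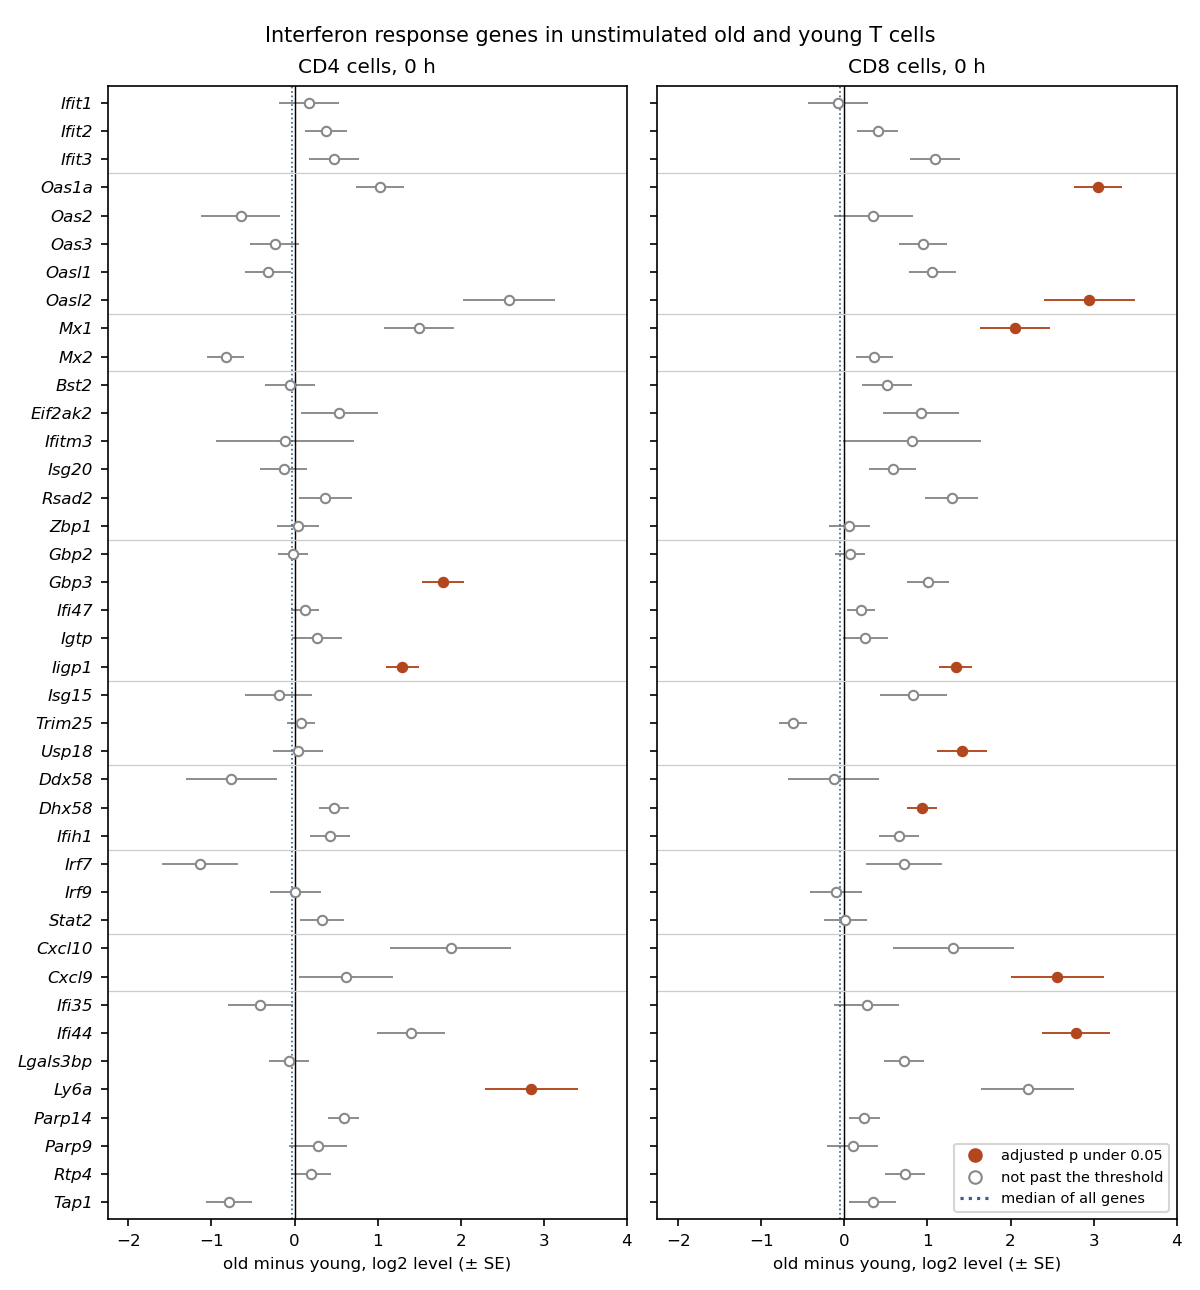
Difference between old and young unstimulated cells for the 40 genes (x axis, log2 level, old minus young, bars are the SE, n = 3 arrays per age) in CD4 and CD8 cells, grouped by role. Filled points passed an adjusted p of 0.05, 3 in CD4 and 8 in CD8 cells, and the dotted line is the median of all genes. Most CD8 points lie right of 0 and CD4 points lie on both sides.

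The age difference itself was set between the cell types, CD8 minus CD4. No gene of the set was called in limma, against 0.0516% of all genes, and 11 had an unadjusted p under 0.05. The median of the 40 genes was 0.54, against -0.02 over all genes. With slide as a block 11 were called, 9 more positive in CD8 cells (Oas1a 2.02, Irf7 1.86) and 2 less (Gbp3 -0.78), against 13.5% of all genes, and with the pair averaged none was. That the 8 calls in CD8 and 3 in CD4 cells differ between the cell types is thus not shown.

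Markers of other cells and states moved with age at 0 h beside these genes, and their part in the results was not tested. With the pair averaged none of these markers was called. Of 16 memory and effector T cell markers, 9 were higher in old CD8 cells (summed level 1030 to 1260 in old, 332 to 394 in young) and 5 in old CD4 cells (138 to 183 in old, 30.2 to 62.8 in young). Of 11 B cell markers, 2 were higher in old CD8 and 4 in old CD4 cells. None of 12 myeloid markers was called, with sums of 51.9 to 189 in old and 9.65 to 47.0 in young CD8 cells. In CD4 cells these sums were 13.9 to 234 in old and 3.59 to 236 in young. The highest sum of each age came from the slide with 1 CD4 array of each age. There the myeloid marker S100a9 lay at 5.64 in old and 7.28 in young CD4 cells. On the other slide it lay at 2.50 and 2.50 in old and -0.78 and -0.72 in young CD4 cells. The cause of this difference between slides was not tested. Plasmacytoid dendritic cells are known as strong producers of type I interferon. Of their 7 markers 1 (Ccr9, which T cells also express) was called lower in each cell type of old mice and none was called higher. The median difference of the 7 was -0.27 in CD4 and -0.5 in CD8 cells. Tcf4, which was not called, had all old arrays above all young ones in both cell types. Such a separation held for 14.4% of all genes in CD4 and 10.8% in CD8 cells. All old arrays lay below all young ones for Ccr9 in both cell types, Tlr7 in CD4 and Pacsin1 in CD8 cells. Of all genes 11.8% in CD4 and 11.2% in CD8 cells were separated to that side.

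CD8 cells also differed from CD4 cells at 0 h over both ages. Of the 40 genes 8 were higher in CD8 cells and 1 was lower, against 13.7% of all genes called in either direction (8.78% higher and 4.91% lower). Ly6a lay between 0.84 and 3.49 in CD8 cells and between -2.58 and 1.36 in CD4 cells (2.89 ± 0.40, 7.42-fold, adjusted p = 0.0011). Mx1 differed by 2.79 ± 0.29 (6.94-fold, adjusted p = 0.00024) and 4 of 6 CD4 arrays measured it above background. Ifit3, whose probe may also read its near-identical copy Ifit3b, lay at 3.08, 2.92 and 2.02 in old and 1.89, 1.46 and 1.41 in young CD8 cells, against 0.97, 0.89 and 0.43 in old and 0.35, 0.01 and 0.49 in young CD4 cells. The lowest CD8 array was above the highest CD4 array. Iigp1 went the other way (-1.0 ± 0.14, adjusted p = 0.0012). Each slide holds 1 cell type, and with slide as a random block none of the 40 was called (1.37% of all genes), nor with the pair averaged (1.24%).

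Stimulation moved the set in different directions by role and time. Each time was set against 0 h over both ages, so 2 arrays of a time stand against 6 at 0 h, and all times of a cell type share those 6. Every stimulated time lies on slides of its own. Time and slide therefore cannot be separated. A random slide block only allows for a spread between slides, and its counts follow each main count. All stimulated CD4 arrays were read with a scanner model and software version that most CD4 arrays at 0 h did not have. Changes with time in CD4 cells thus also hold any difference between scanners and software, whose part was not tested. The CD8 arrays all shared the same scanner model and software version.

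In CD4 cells at 4 h, 14 of 40 genes rose and 1 fell, against 32.2% of all genes called in either direction, and with the random block 9 rose and 1 fell (17.3%). All 5 inducible GTPases and both chemokines were among the 14. Cxcl10, a chemokine that draws CXCR3-bearing T cells, lay at 4.65 in old and 2.95 in young CD4 cells at 4 h, against -3.73, -3.55 and -1.66 in old and -5.60, -5.67 and -3.31 in young CD4 cells at 0 h. Both 4 h arrays were far above every 0 h array (7.72 ± 0.83, 211-fold, adjusted p = 1.2e-06). Only 1 of 3 young CD4 arrays at 0 h measured Cxcl10 above background, so its changes against 0 h in CD4 cells have no exact size. Iigp1 lay at 7.38 in old and 5.85 in young CD4 cells at 4 h and rose by 3.35 ± 0.49 (10.2-fold). Cxcl9 rose by 3.82 (14.1-fold), with 1 of 6 arrays at 0 h above background. Gbp2, a guanylate-binding protein, rose by 3.04 (8.22-fold), Ifit1 by 1.97 and Isg15, the ubiquitin-like modifier, by 1.82, both lost with the random block (adjusted p = 0.14 and 0.16). The files place the Isg15 probe on chromosome 17 (mm7) and RefSeq annotates Isg15 on chromosome 4 (GRCm38.p6), so the identity of this probe is uncertain. Ddx58, which encodes the RNA sensor RIG-I, fell by 2.24 on the log2 scale.

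From 12 h on calls in CD4 cells went in both directions, in the set as over all genes. At 12 h 5 genes rose and 5 fell, at 24 h 8 rose and 7 fell, and at 72 h 3 rose and 9 fell, against 40.7, 44.9 and 39.1% of all genes called, shares larger than those of the set. Of all genes 24.2, 25.2 and 22.2% rose at 12, 24 and 72 h, and 16.5, 19.7 and 16.9% fell. With the random block the counts were 4 and 1, 2 and 3, and 2 and 5, against 25.3, 29.7 and 22.9%. Ly6a lay at 3.78, 3.67, 4.82 and 6.14 in old and at 1.01, 2.98, 3.22 and 4.42 in young CD4 cells at 4, 12, 24 and 72 h. At 72 h it was 6.10 ± 0.66 above 0 h (68.5-fold, adjusted p = 1e-06), the largest rise of the 40 genes at that time. Cxcl10 was 4.99 above 0 h at 12 h and 2.50 at 24 h (lost with the random block, adjusted p = 0.15), and was not called at 72 h (0.49, adjusted p = 0.68). Eif2ak2 (PKR, a kinase that halts translation on viral RNA) was 2.02 above 0 h at 72 h, lost with the random block (adjusted p = 0.13), and Tap1 was 1.69 above.

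Among the genes that fell, Ddx58 was 3.22 below 0 h at 12 h and 3.84 below at 24 h (log2 differences of -3.22 and -3.84). At 12 h Ifitm3, which bars viral entry, and Oas1a were also lower (-2.24 and -1.79), and both calls were lost with the random block (adjusted p = 0.11 each). Oas2 was not well above background on either CD4 array at 72 h and was at least 11-fold lower than at 0 h. Oas1a was at least 12.8-fold lower there, also with no array above background. Rtp4, an interferon-induced chaperone of receptors, lay at -1.87 in old and 0.61 in young CD4 cells at 72 h, against 4.19, 4.16 and 3.99 in old and 3.96, 4.07 and 3.70 in young CD4 cells at 0 h (-4.64 ± 0.53, 25.0-fold lower). All 3 IFIT genes were lower at 72 h, with Ifit1 lost under the random block (adjusted p = 0.06). The call of Parp9 at 24 h (-3.70, adjusted p = 0.029) comes from 1 old array at -6.49, below background, beside 3.13 on the young array, and without old replicate 3 it was lost (adjusted p = 0.052), as with the random block (adjusted p = 0.19).

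In CD8 cells at 4 h, 8 of 40 genes rose and 4 fell, against 27.4% of all genes, and with the random block 6 rose and none fell (13.2%). The 8 were all 5 inducible GTPases, both chemokines and Ly6a, and of these Gbp3 and Ly6a were lost with the block (adjusted p = 0.067 and 0.1). Cxcl10 lay at 3.91 in old and 4.68 in young CD8 cells at 4 h, against -1.78, -2.16 and -2.22 in old and -2.46, -3.86 and -3.75 in young CD8 cells at 0 h (7.0 ± 0.83, 128-fold, adjusted p = 4.8e-06). Cxcl9 rose by 4.64 (24.9-fold) and Iigp1 by 3.40 (10.5-fold). Mx1, Ddx58, Ifit2 and Dhx58 fell, by 2.58, 1.67, 1.64 and 1.29 on the log2 scale.

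Later most CD8 calls were falls. At 12 h 7 genes rose and 14 fell, at 24 h 3 rose and 22 fell, and at 72 h none rose and 16 fell, against 30.3, 33.2 and 28.1% of all genes called in either direction (14.2, 17.1 and 14.4% lower). The median of the 40 genes was -0.90, -1.24 and -0.92 at 12, 24 and 72 h, against 0.01, -0.10 and 0.01 over all genes. With the random block 4 rose and 5 fell, none rose and 9 fell, and none rose and 7 fell, against 19.9, 18.6 and 13.6% of all genes. At 24 h the falls included all 3 IFIT genes, all 3 RNA sensors, both Mx genes, 4 of 5 OAS genes and Irf7 and Irf9. The 9 that remained with the random block were Ifit1, Oas2, Mx2, Rsad2, Isg20, Ddx58, Dhx58, Irf9 and Rtp4. Rsad2 (viperin, which stalls viral RNA synthesis) was not well above background on either CD8 array at 24 h and was at least 9.02-fold lower than at 0 h. Oas2 was 4.56 below 0 h on the log2 scale there (-4.56), with 1 of 2 arrays above background. The rises at 24 h were Ly6a (2.67), Iigp1 (1.75) and Igtp (0.87), a GTPase of the Iigp1 family, and none of these passed with the random block (adjusted p = 0.073, 0.13 and 0.08). At 72 h Ifit1 (-3.49) and Ifit3 (-3.45) had the largest falls. If the times of the deposited value table are taken instead of those of the scanner files, 4 h has 7 rises and 14 falls (Cxcl9 at -0.56, adjusted p = 0.64), 12 h has 3 and 22, and 24 h has 8 and 4.

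**Figure D2:**
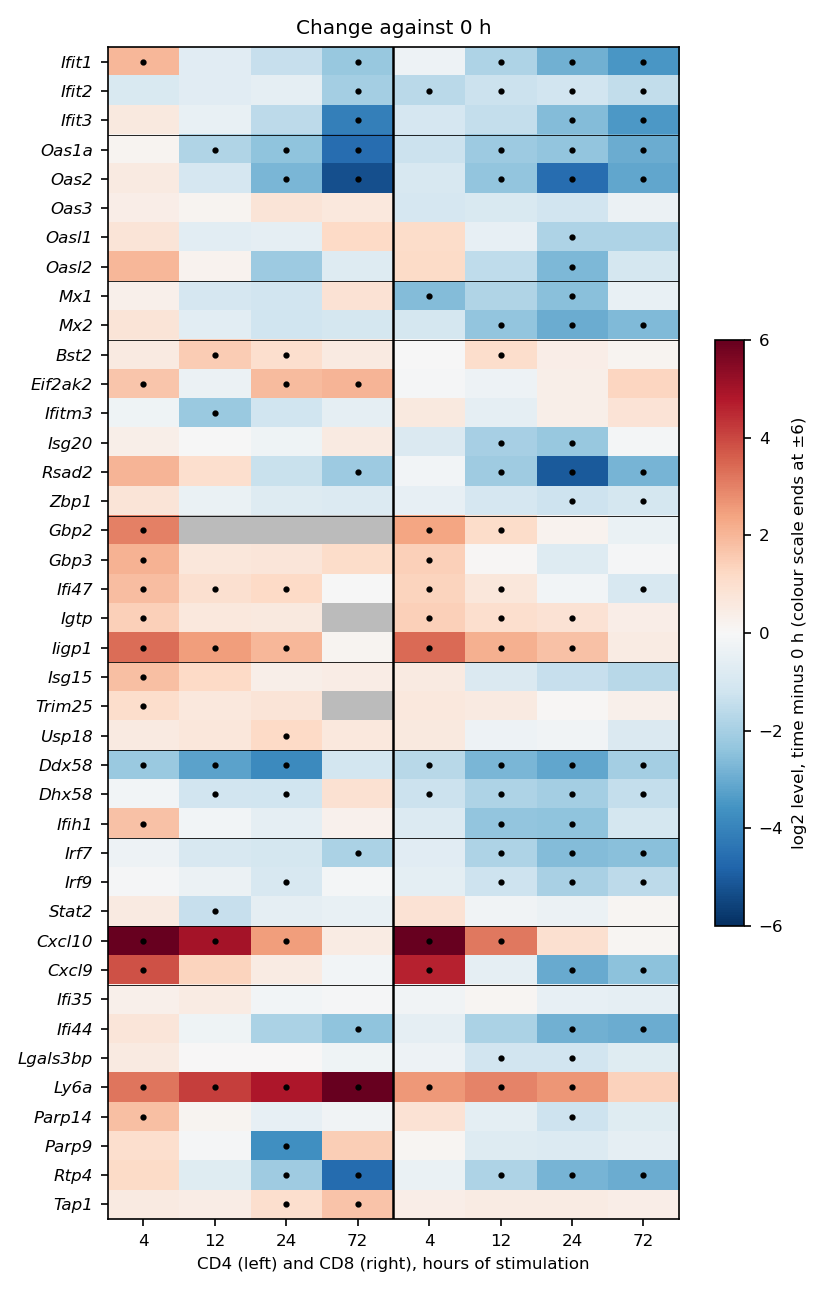
Change of each of the 40 genes against 0 h (colour, log2 level, red higher and blue lower) at 4, 12, 24 and 72 h in CD4 (left) and CD8 cells (right). Dots mark an adjusted p under 0.05 and grey marks values that could not be estimated. The GTPase and chemokine rows are red at 4 h in both cell types, and the CD8 columns at 24 and 72 h are mostly blue in the IFIT, OAS and RNA sensor rows.

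With 1 array per age at each stimulated time, old minus young has no replicate check there and no test. In CD4 cells at 4 h all 40 genes were higher in the old array, with a median of 0.90, whereas 39.1% of all genes were higher and the median of all genes was -0.24. The difference was at least 2-fold for 17 genes (8.02% of all genes) and ranged from 0.01 (Ifi35) to 2.77 (Ly6a). Cxcl9 (2.61) and Oasl2 (2.60) came next. Ifit1 lay at 3.28 in the old and 1.31 in the young array, and Ifih1, which encodes the RNA sensor MDA5, at 3.45 in the old and 1.33 in the young array.

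The CD4 difference at later times had no single direction. At 12 h 23 of 39 genes were higher in the old array (63.5% of all genes), from Stat2 at -2.0 to Rsad2 at 2.36. At 24 h 14 of 35 were higher (59% of all genes). Oas2, lower in the old array, was not well above background in it, and Cxcl9, higher in the old array, was not well above background in the young one, so neither difference has an exact size. At 72 h 11 of 36 were higher (50.6% of all genes), with a median of -0.87 against 0.01 over all genes. There 16 genes were at least 2-fold lower in the old array (10.9% of all genes), among them Ifi44 (-3.00), Oas3 (-2.78) and Ifih1 (-2.69). Usp18, Cxcl10 and Ly6a were higher in the old array at all 4 times, as were 8.01% of all genes, and no gene of the set was lower at all 4 (5.3%). Ly6a was also among the 3 calls at 0 h.

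In CD8 cells the old array was the lower one for most of the set at every stimulated time. At 4 h 31 of 40 genes were lower in the old array, at 12 h 36 of 39, at 24 h 30 of 40 and at 72 h 28 of 40, while 55.7, 56.3, 47.5 and 46% of all genes were lower. The medians of the 40 genes were -0.49, -0.92, -0.61 and -0.54, against -0.07, -0.14, 0.02 and 0.08 over all genes. Old and young shared a slide at each of these times other than 12 h. Differences of at least 2-fold to the lower side numbered 11, 19, 10 and 18 (4.48, 24.8, 7.36 and 9.63% of all genes).

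Ifit1 lay at 1.17, 1.11 and 0.25 in old CD8 cells at 0 h, against 0.62, 1.74 and 0.39 in young CD8 cells, and the groups overlapped. At 4, 12, 24 and 72 h it lay at -0.50, -2.08, -2.78 and -4.16 in old CD8 cells, against 1.61, 0.16, -1.20 and -1.06 in young CD8 cells. The old array was lower at all 4 times, with differences of -2.11, -2.24 and -1.58 at 4, 12 and 24 h, and at 72 h the old array was not well above background. The difference was -2.72 for Mx2 at 12 h. Rsad2 at 12 h and Oasl1, another OAS family gene, at 72 h were above background in the young array and not well above it in the old array. In all, 21 of the 40 genes were lower in the old array at all 4 times, as were 13% of all genes, and 2 were higher at all 4 (10.4%). Those 2 were Oas1a, which lay at -0.22, -1.47, -1.36 and -2.07 in old and -2.14, -2.63, -3.15 and -3.66 in young CD8 cells, and Gbp3.

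In CD8 cells, 8 of the 40 genes had all old arrays above all young ones at 0 h and the old array below the young one at all 4 stimulated times, with 1 array per age at each of those times. They were Ifit3, Oas3, Oasl1, Rsad2, Dhx58, Eif2ak2, Rtp4 and Lgals3bp. The same joint pattern held for 0.584% of all genes. The 8 are 36.4% of the 22 genes without overlap at 0 h and 38.1% of the 21 genes lower at all times. Being lower at all times was no more frequent among those 22 genes (8 of 22) than in the whole set (21 of 40). The joint pattern thus does not show that the genes higher at 0 h are those lower later. Rsad2 lay at -1.31, -1.40 and -1.34 in old and -2.72, -2.58 and -2.61 in young CD8 cells at 0 h. At 4, 12, 24 and 72 h it lay at -3.39, -6.02, -7.33 and -5.71 in old and -0.94, -2.20, -6.73 and -3.88 in young CD8 cells, some of these below background.

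Tested over the 4 stimulated times together, no gene of the set differed between old and young CD8 cells in limma, against 0.412% of all genes (0.33% higher and 0.0825% lower). The unadjusted p was under 0.05 for 17 genes, 34 of the 40 differences were negative, and the median was -0.58 against -0.05 over all genes. Ifit1 (-2.26 ± 0.43, adjusted p = 0.088), Mx2 (-2.30, adjusted p = 0.13) and Isg15 (-1.80, adjusted p = 0.15) came nearest. With arrays weighted by their noise 7 genes were lower and 1 (Oas1a) was higher (3.08% of all genes). Set against 0 h, the age difference of stimulated CD8 cells was lower for 38 of 40 genes, with a median of -1.44 against -0.02 over all genes. None was called (0.0103% of all genes, 0.00516% in each direction) and 26 had an unadjusted p under 0.05, with Rsad2 at -3.46 and Ifit3 at -3.15 (adjusted p = 0.12 each), whereas with array weights 32 were lower (11.5% of all genes).

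In stimulated CD4 cells no gene was called for age either, against 0.113% of all genes, with 2 at an unadjusted p under 0.05 and a median of 0.06 against 0.03. Ly6a stood at 1.69 (adjusted p = 0.13). For the change with stimulation in CD4 cells none was called and 3 had an unadjusted p under 0.05, as no gene of all was called (0%), and with array weights Ly6a was (-2.24, 0.438% of all genes).

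**Figure D3:**
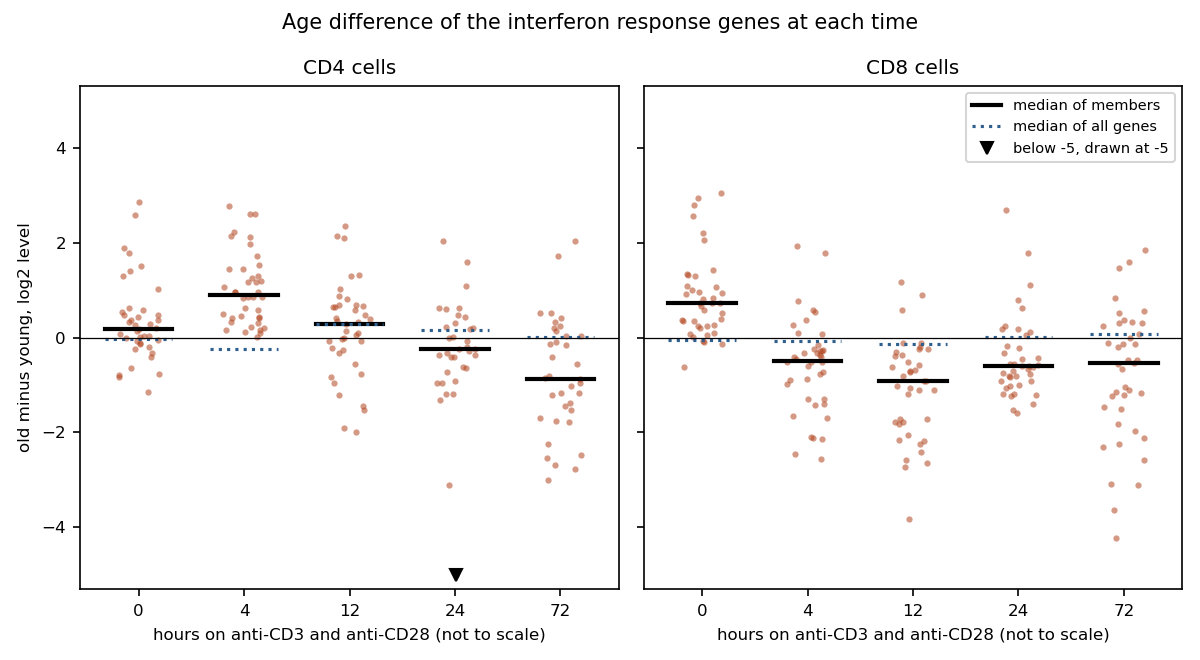
Old minus young log2 level of each of the 40 genes (points) at 0, 4, 12, 24 and 72 h in CD4 and CD8 cells, as the difference of 3 and 3 arrays at 0 h and of 1 and 1 array after it. Black bars are the median of the set and dotted bars that of all genes. The CD4 median is highest at 4 h (0.90), and the CD8 median lies above 0 at 0 h (0.72) and below 0 at the 4 later times. The triangle is Parp9 at -9.62 (24 h, CD4), drawn near the lower end of the axis.

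**Figure D4:**
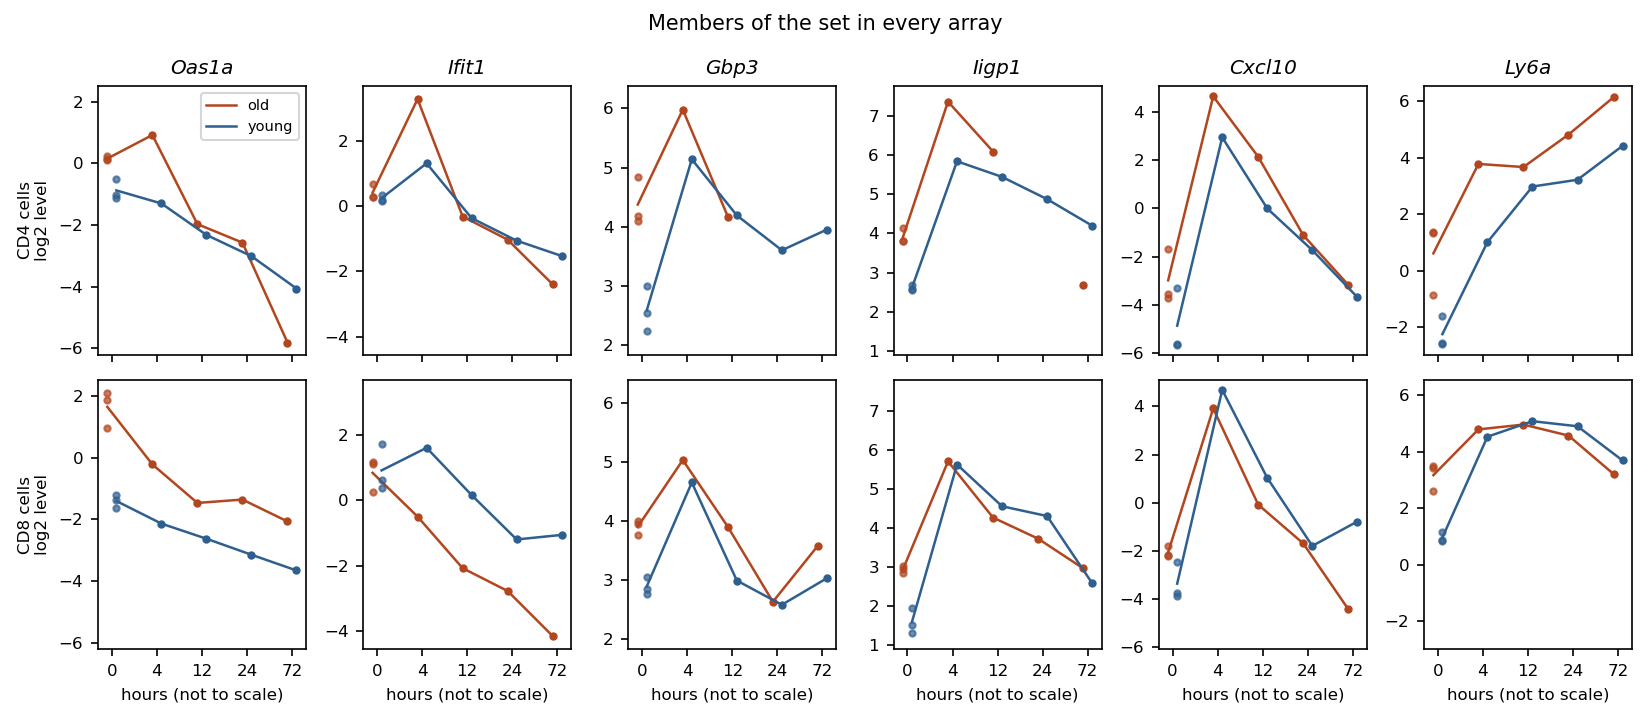
Log2 level of 6 genes in every array of old (orange-red) and young (blue) CD4 cells (top row) and CD8 cells (bottom row) against hours of stimulation, with lines through the mean at 0 h and the single arrays after it. Oas1a is higher in old CD8 cells at every time, and Ifit1 is lower in old CD8 cells at each of the 4 stimulated times. Missing points are spots left out as non-uniform or outlying.

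Other genes of the interferon pathway were described from a list of 64, of which 54 could be tested. With the pair of arrays on one slide averaged, none of the 54 was called for age at 0 h in either cell type. Without averaging, 1 was higher and 1 lower in old CD4 cells (1.74% of all genes were called): Ifngr1, a chain of the interferon gamma receptor (0.97, adjusted p = 0.031), and Ikbke, a kinase that activates IRFs (-1.10, adjusted p = 0.018). In old CD8 cells Socs3, an inhibitor of JAK kinases, was the 1 gene called (2.22% of all genes), and was higher (1.45 ± 0.22, 2.74-fold, adjusted p = 0.0075). It lay at 6.01, 6.05 and 5.83 in old and 4.77, 4.45 and 4.31 in young CD8 cells. In CD4 cells Socs3 differed by 1.00 (adjusted p = 0.052). None of the 10 ligands tested was called for age at 0 h in either cell type. Ifng, the interferon gamma gene, lay at 4.06, 3.93 and 5.61 in old and 3.12, 0.89 and 0.89 in young CD8 cells (2.90 ± 0.70, adjusted p = 0.072). In CD4 cells it lay at 1.82, 1.79 and 2.17 in old and -1.15, -0.96 and 0.65 in young mice (2.41 ± 0.70, adjusted p = 0.13). In both cell types old arrays lay above all young ones.

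After stimulation, 9 of the 54 rose and 6 fell at 4 h in CD4 cells, and 10 rose and 6 fell in CD8 cells, against 32.2 and 27.4% of all genes called. With the random block 7 rose and none fell in CD4 cells, and 6 rose and 4 fell in CD8 cells (17.3 and 13.2%). At 24 h 11 rose and 16 fell in CD4 cells, and 5 rose and 19 fell in CD8 cells, against 44.9 and 33.2% of all genes. With the random block these were 7 and 11 in CD4 cells and 4 and 9 in CD8 cells (29.7 and 18.6%). Ifng rose by 4.04 ± 0.79 at 4 h in CD4 cells (16.4-fold) and by 5.18 ± 0.79 in CD8 cells (36.3-fold). It was 2.37 above 0 h at 72 h in CD4 cells (lost with the random block, adjusted p = 0.15) and 4.83 in CD8 cells. Ifnb1, the interferon beta gene, was above background on both CD4 arrays at 4 h and on none at 0 h, and was at least 2.62-fold higher (adjusted p = 0.0022, and 0.054 with the random block). In CD8 cells 1 of 2 arrays measured it at 4 h (1.26, adjusted p = 0.22). Irf4 and Irf8, transcription factors of activated lymphocytes, rose by 7.92 and 5.31 in CD4 and by 7.96 and 4.53 in CD8 cells at 4 h. Irf1, which interferon gamma induces, rose by 1.13 in CD4 and 1.08 in CD8 cells at 4 h, and Socs1, an inhibitor of the interferon receptors, by 2.80 and 2.63. Jak1, a kinase of all interferon receptors, fell by 0.98 at 4 h in CD8 cells and by 0.58 in CD4 cells, where the call was lost with the random block (adjusted p = 0.2). Of 9 antigen presentation genes 6 fell in each cell type at 24 h, while 19.7% of all genes fell in CD4 and 17.1% in CD8 cells. Tap2 and Tapbp were lost in CD4 cells with the random block (adjusted p = 0.14 and 0.12). B2m, H2-D1, Tap2 and Tapbp were lost in CD8 cells (adjusted p = 0.18, 0.15, 0.26 and 0.066). B2m, the light chain of class I molecules, fell by -1.87 in CD4 cells (1 array with a usable spot) and -0.77 in CD8 cells.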

How the data were processed

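One-colour Agilent arrays measured RNA in 28 samples of 20 groups. The deposited intensity values are gProcessedSignal, which the authors' scanner software had background-subtracted, per the file headers (Agilent Feature Extraction 10.1.1.1 or 9.5.1.1). The deposited flag columns, a score of 0 or 1 per spot, marked background and outlying spots. On a log2 scale, the values deposited by the authors for the series were used for a check of array identity and as an alternative at 0 h. The build of the probe positions is mm7, per the file headers. Other steps of the authors are not given in the sources used here, and no column of another sample was left unused (0).

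Signals were log2-transformed and each array's 75th percentile was subtracted. Control and outlying spots were left out, repeat spots were averaged, and the brightest probe stood for a gene, if well above background on at least 3 arrays. Differences were fitted with limma 3.58.1 (R 4.3.3) over 16 comparisons, with Benjamini-Hochberg adjustment over all genes and a threshold of 0.05. The 0 h comparisons used the 12 arrays at 0 h without a block, and the time comparisons used all arrays. The script was tested on simulated data. Same-numbered CD4 arrays deviated together (r = 0.548, 0.486 and 0.682, following the slides), and CD8 arrays did not (r = -0.24, 0.088 and -0.405).

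The members and lists were chosen with earlier results of these data known. Named are members called for age, the brightest gene of a role, the 3 largest called changes in each direction per time, the genes with the fewest arrays above background (Cxcl9 11, Oasl2 12, Mx1 18), Xaf1, and the 3 highest and lowest age differences per time. Other genes named were chosen after their values were seen. A gene called by several of these rules counts under each.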

Additional observations from a re-analysis of the deposited data

Results flagged for a closer look

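Irf7, the regulator of type I interferon genes, was singled out because its age difference at 0 h ran in opposite directions in CD4 and CD8 cells, with every array of one age on one side in each. In CD4 cells it lay at 0.32, 0.31 and -1.57 in old and 1.02, 1.06 and 0.40 in young mice (-1.14). In CD8 cells it lay at 1.49, 1.44 and 0.85 in old and 0.52, 0.62 and 0.49 in young mice (0.72). The difference between the cell types was 1.86 ± 0.65 (limma, adjusted p = 0.33), and with slide as a block its adjusted p was 0.018. Groups of 3 arrays or 1 array were too small for a check of single outlying arrays.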

How the results depend on the processing

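Counts of called genes among the 40 were recomputed under each alternative: 179 counts stayed within 1.5 times the main count and 43 did not. Of the named genes, 819 values kept direction and call, 125 kept direction and lost the call, and 1 reversed (Cxcl9 in CD8 cells at 4 h, -0.56 with the times of the value table). The cause of these changes was not tested, except that averaging leaves fewer values. With the arrays of a group on one slide averaged, the counts for age were 0 in CD4 and 0 in CD8 cells and that for CD8 minus CD4 was 0. With slide as a random block CD8 minus CD4 gave 0, CD4 cells gave 5, 5 and 7 at 12, 24 and 72 h, and CD8 cells gave 6, 9, 9 and 7 at 4, 12, 24 and 72 h. With slide as a fixed block the counts for age were 13 in CD4 and 15 in CD8 cells, and 11 for their difference. The replicate block gave 5 in CD8 cells, and 0 in a fit of CD4 arrays alone. Scaling to the median gave 1 for age in CD4 and 3 in CD8 cells, and 11 in CD8 cells at 12 h. Normexp gave 14 for CD8 minus CD4, and 1 each for age in stimulated CD8 cells and its change with stimulation, where quantile scaling also gave 1. Array weights gave 8 and 32 for these, and 1 for the change in CD4 cells. Without the low-signal filter age in CD8 cells gave 4, and with the mean of probes 5. Leaving out the slide with 1 array of each age gave 7 in CD4 cells. With the times of the value table CD8 cells gave 21 at 4 h and 12 at 24 h. Leaving out 1 array at a time gave 0 to 5 for age in CD4 cells, 3 to 9 in CD8 cells, 0 to 1 for their difference and 9 to 14 for CD8 minus CD4. For the times it gave 14 to 15, 9 to 11, 13 to 16 and 10 to 12 in CD4 cells, and 11 to 12, 17 to 20, 23 to 25 and 14 to 18 in CD8 cells, and 0 for stimulated cells and the changes. Under normexp the median of all genes shifted to -0.42, 0.61, 0.46 and 0.65 at the 4 CD4 times. Normexp on mean signals was not run, because 18 arrays lack that column, and median signals were used, chosen after seeing the data, as were the averaging, the CD4 replicate block, the left-out slide and the value table times. Dim genes such as Cxcl9 and Oasl2 are limited by signal over background.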
